A study of Mus musculus with 6 samples.

Results

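The DNA damage checkpoint was followed through 10 genes: the sensors *Mre11a*, *Rad50* and *Nbn*, the apical kinases *Atm* and *Atr*, the chromatin mediators *H2afx*, *Mdc1* and *Trp53bp1*, and the effector kinases *Chek1* and *Chek2*. Each gene symbol matched 1 row of the gene count table, and the set makes up 10 of its 43346 genes. The set was chosen with earlier results of these data known. All 10 passed the filter on low counts, as did 17589 genes in total. The RNA came from MAFs (mouse adult fibroblasts), which are primary cells taken from ears of adult female C57BL/6 mice. Senescent MAFs (n = 3) were exposed to 20 Gy of X-rays 21 days before, whereas control MAFs (n = 3) were sham irradiated. Both groups were kept in 3% oxygen, received 100 nM dexamethasone for 2 hours, and were collected 12 hours later, so every value here describes cells after this synchronizing pulse. The sources used here do not give the number of mice or say that the replicates of a group were separate cultures, and p-values therefore measure only the spread between these libraries. The deposited counts assigned to genes summed to 50961338, 61747564 and 50288454 in the 3 control libraries and to 53792998, 77416645 and 82229553 in the 3 senescent libraries.

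A DNA double-strand break is bound by the MRN complex of MRE11, RAD50 and NBS1, which recruits and activates the kinase ATM. ATM phosphorylates the histone variant H2AX around the break, MDC1 reads this mark, and ubiquitin ligases then bring in 53BP1. Single-stranded DNA at resected ends and stalled forks activates the related kinase ATR. ATM signals mainly to CHK2 and ATR mainly to CHK1, and both effector kinases act on p53 and on CDC25 phosphatases to hold the cell cycle. These proteins are controlled largely by phosphorylation and by their location, neither of which RNA-seq measures. In senescent cells, persistent foci of phosphorylated H2AX and 53BP1 are a widely used sign of unresolved damage.

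RefSeq promoters of GRCm38.p6, taken as the 250 bases before the start site, were matched for 7 of the 10 genes and are not shown for *H2afx*, *Rad50* and *Nbn*. The RefSeq start lay downstream of the deposited gene start by 407 bases in *Chek1* and 69 in *Atm*. The *Chek1* window therefore lies within the deposited gene, and the bases before its deposited start were not searched. Printed are the 160 bases just before the start, 5′ to 3′ on the gene's strand, of the 2 genes with an E2F word, *Chek2* (chr5:110839823-110839982, plus strand) and *Mdc1* (chr17:35841338-35841497, plus strand). Beside them are 2 of the genes without one, *Atr* (chr9:95857437-95857596, plus strand) and *Trp53bp1* (chr2:121271408-121271567, minus strand). *Atm*, *Chek1* and *Mre11a* also had no E2F word and are not printed. In senescent MAFs these were at 75.9%, 30.9% and 65.4% of control. Capitals mark E2F words, CCAAT boxes and GC boxes on either strand.
Chek2: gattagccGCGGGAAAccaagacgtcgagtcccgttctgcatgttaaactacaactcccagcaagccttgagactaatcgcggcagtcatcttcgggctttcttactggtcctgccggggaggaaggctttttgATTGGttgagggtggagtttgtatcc
Mdc1: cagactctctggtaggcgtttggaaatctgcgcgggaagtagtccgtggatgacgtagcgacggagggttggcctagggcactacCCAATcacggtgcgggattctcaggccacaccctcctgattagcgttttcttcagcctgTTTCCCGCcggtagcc
Atr: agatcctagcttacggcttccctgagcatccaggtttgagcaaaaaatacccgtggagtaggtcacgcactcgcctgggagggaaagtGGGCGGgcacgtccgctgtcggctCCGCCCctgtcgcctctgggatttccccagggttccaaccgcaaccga
Trp53bp1: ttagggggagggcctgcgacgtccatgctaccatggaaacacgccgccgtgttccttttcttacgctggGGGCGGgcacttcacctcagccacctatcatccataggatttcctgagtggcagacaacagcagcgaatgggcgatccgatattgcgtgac
E2F factors bind promoters of genes used in S phase. One of the E2F words searched (TTTGGCGC, TTTCCCGC, TTTGCCGC and TTTCGCGC, both strands) was in 2 of the 7 promoters and in 1.86% of 32851 RefSeq promoters of the same length. In *Chek2* it was TTTCCCGC on the reverse strand, 152 to 145 bases before the start, and in *Mdc1* the same word on the forward strand, 16 to 9 bases before the start. The CCAAT box (CCAAT, both strands), bound by NF-Y, was in *Atm*, *Chek2*, *Mdc1* and *Mre11a*, 4 of 7 promoters, against 33.8% of all. The GC box (GGGCGG, both strands), bound by Sp1, was in *Atm*, *Atr*, *Trp53bp1* and *Mre11a*, also 4 of 7, against 32.7% of all. The only overlapping matches were 2 GC boxes of *Mre11a*. None of the 7 windows held any of the following words: TTTGAA, the core of the cell cycle genes homology region (15.99% of all promoters), the CRE TGACGTCA (1.55%), the AP-1 words TGAGTCA and TGACTCA (4.46%), and the E-box CACGTG (6.02%), the word bound by BMAL1:CLOCK. The 7 windows had a GC content of 54.4% to 66%, and the shares over all promoters were not matched for it. A match or its lack describes these letters only, and no factor binding was measured.

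One library stood apart from its group, senescent replicate 3. The ratio of the observed to the counting variance between replicates was 2.33 for senescent replicates 1 and 2 but 24.8 and 33.2 for the pairs with replicate 3, against 1.81 to 6.04 among control pairs. Its departure followed the GC content of the transcripts. Among 16845 genes, its log2 level relative to the mean of the other 2 senescent libraries had a median of 0.26 in genes with a GC content up to the lower quartile (44.9%) and −0.41 in genes from the upper quartile on (54.3%). The 10 genes did the same, with a Spearman correlation of −0.89 between GC content and this departure over the 10 genes, whose values come from the same libraries. *Chek1*, *Nbn*, *Atr*, *Atm* and *Rad50*, with 40.8% to 45.2% GC, were 19.3% to 24.8% higher in replicate 3 than in the other senescent libraries. *H2afx*, with 62.3% GC, differed from them by −15.6%. *Chek2*, *Trp53bp1*, *Mdc1* and *Mre11a* differed by −1.57% to 7.12%. Control replicate 1 had a weaker trend of the same sign against the other control libraries, with medians of 0.07 and −0.14 in the low and high GC genes and a Spearman correlation of −0.60 over the 10 genes. The difference between senescent and control MAFs also had one, with medians of 0.19 and −0.25 and a correlation of −0.42 over the 10 genes. The part of GC content in the results was not tested beyond a fit with a GC offset and fits that leave out a library.

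**Figure D1:**
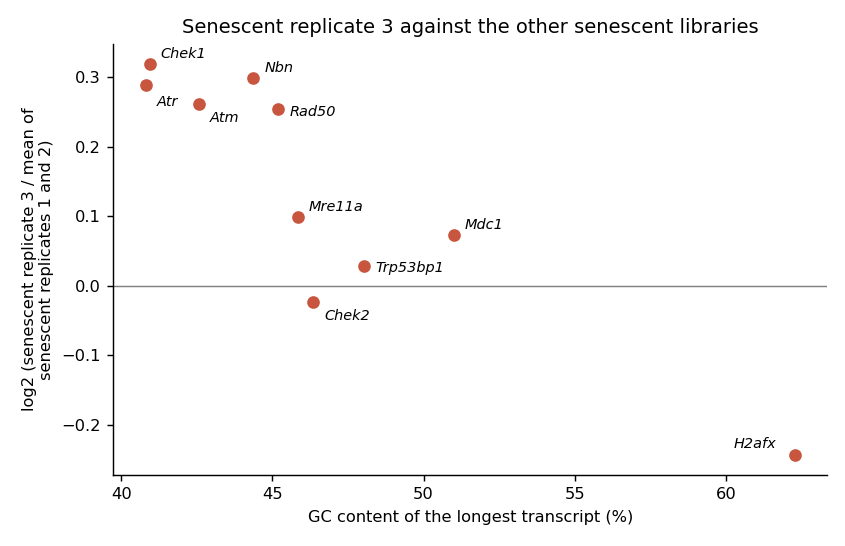
GC content of the longest transcript (x axis, percent) against the level in senescent replicate 3 relative to the mean of senescent replicates 1 and 2 (y axis, log2), 1 labelled point for each of the 10 genes. Genes with low GC content such as *Chek1* and *Nbn* lie highest, and *H2afx*, with 62.3% GC, lies lowest.

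Checkpoint transcripts were lower in senescent MAFs, most of all those of the effector kinases and of H2AX. *Chek2*, *Chek1* and *H2afx* stood at 26.0%, 30.9% and 32.4% of control and *Mdc1* at 44.9%, whereas *Mre11a*, *Rad50*, *Atm* and *Trp53bp1* kept 65.4% to 76.4%. *Atr* and *Nbn* did not pass the test. At an adjusted p under 0.05 (edgeR's quasi-likelihood test, Benjamini-Hochberg over all genes tested), 8 of the 10 genes were lower and 0 higher. Over all genes tested, 34.1% were lower and 36.2% higher at this limit, 70.3% in all. No gene of the 10 was higher at an unadjusted p under 0.05 either, or by the edgeR exact test or DESeq2. The study's methods ask for an unadjusted p under 0.05 and a log2 fold change of more than 1 in size. By that limit *Chek1*, *Chek2*, *H2afx* and *Mdc1* were lower and 0 were higher, where 12.3% of all genes were lower and 17.8% higher, 30.1% in all. All control libraries lay above all senescent libraries for 8 of the 10 genes, against 37.0% of all genes. Counting either direction, the groups did not overlap for 75.3% of all genes. The median log2 fold change was −0.52 over the 10 genes and 0.01 over all genes tested. In bulk RNA, a transcript carried by fewer cells and less of it per cell cannot be told apart.

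**Figure D2:**
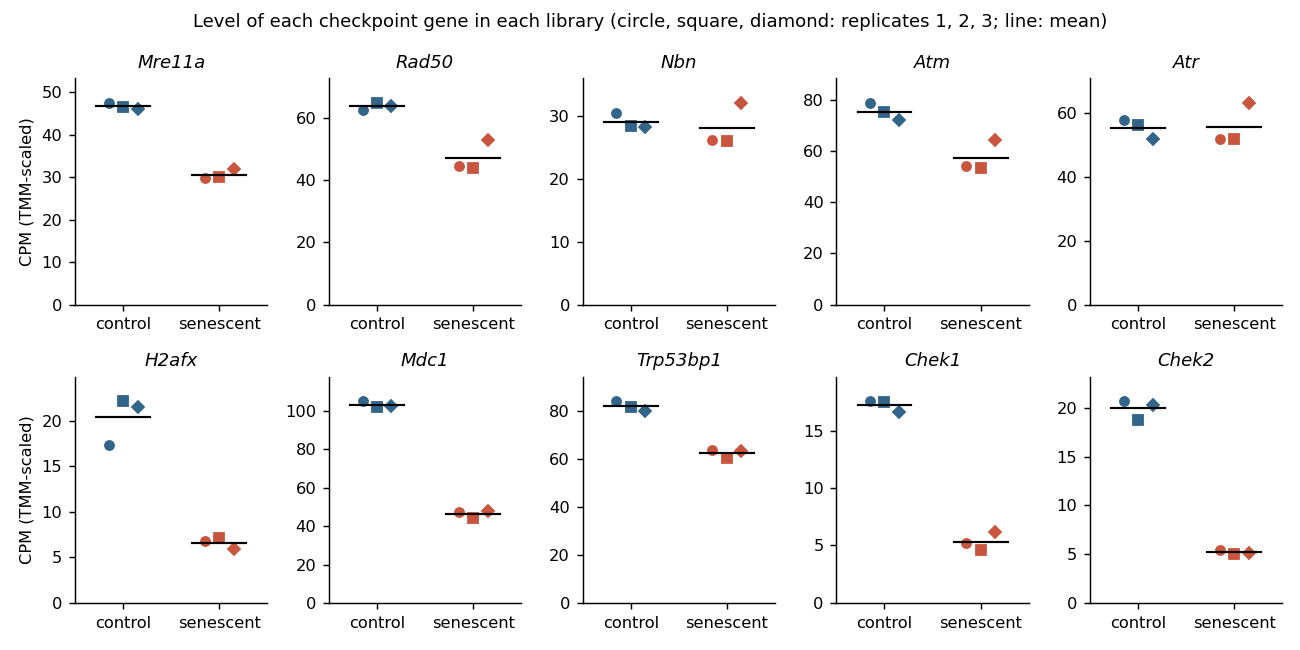
TMM-scaled CPM (y axis) of each of the 10 genes in the 3 control and 3 senescent libraries, 1 point per library, with a line at the group mean. The groups overlap for *Atr* and *Nbn* and are apart for the other 8 genes, as they are in either direction for 75.3% of all genes tested.

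Within the MRN complex, *Mre11a* and *Rad50* passed the test and *Nbn* did not. MRE11 is its nuclease, and *Mre11a* (ENSMUSG00000031928, GRCm38 chr9:14784654-14837123), in CPM (counts relative to the TMM-scaled library size), was at 47.5, 46.5 and 46.1 CPM in control libraries and at 29.8, 29.9 and 32.0 CPM in senescent libraries. It fell from 46.7 ± 0.750 to 30.5 ± 1.23 CPM (SD, n = 3 each), a log2 fold change of −0.61 (SE 0.06, adjusted p = 4.59e-05 by edgeR). RAD50 is the ATPase that tethers the DNA ends, and *Rad50* (ENSMUSG00000020380, chr11:53649519-53707319) was at 62.7, 65.0 and 64.0 CPM in control and at 44.6, 44.1 and 52.9 CPM in senescent libraries. All senescent libraries lay below all control libraries, with replicate 3 the nearest. The log2 fold change of *Rad50* was −0.44 (SE 0.08, adjusted p = 0.00162 by edgeR).

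NBS1, the product of *Nbn* (ENSMUSG00000028224, chr4:15957925-15992589), links the complex to ATM. *Nbn* was at 30.5, 28.4 and 28.3 CPM in control and at 26.2, 26.0 and 32.1 CPM in senescent libraries. Senescent replicates 1 and 2 were below every control library and replicate 3 was above every one. The log2 fold change of *Nbn* was −0.05 (SE 0.10, 95% interval −0.27 to 0.18, adjusted p = 0.678 by edgeR). Without senescent replicate 3 it was −0.15 (adjusted p = 0.0268), and with the GC trend of each library as an offset −0.16 (adjusted p = 0.0111), both past the threshold.

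Of the 2 apical kinases, *Atm* passed the test and *Atr* did not, with 95% intervals that met (−0.59 to −0.20 for *Atm*). *Atm* (ENSMUSG00000034218, chr9:53439149-53536740) was at 79.1, 75.3 and 72.1 CPM in control and at 54.1, 53.4 and 64.5 CPM in senescent libraries, with no overlap. It fell from 75.5 ± 3.46 to 57.3 ± 6.19 CPM, a log2 fold change of −0.40 (SE 0.09, adjusted p = 0.00357 by edgeR). *Atr* (ENSMUSG00000032409, chr9:95857597-95951644) was at 57.7, 56.1 and 51.7 CPM in control and at 51.6, 51.6 and 63.1 CPM in senescent libraries, so the highest and the lowest library were both senescent. The group means were 55.2 ± 3.11 and 55.4 ± 6.62 CPM, and the log2 fold change of *Atr* was 0.01 (SE 0.09, 95% interval −0.21 to 0.22, adjusted p = 0.950 by edgeR). Its value also rested on senescent replicate 3: it was −0.09 without that library (adjusted p = 0.114) and −0.20 with the GC offset (adjusted p = 0.000736).

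Among the mediators at broken chromatin, the histone and its reader fell furthest. *H2afx* (ENSMUSG00000049932, chr9:44334694-44336077) encodes H2AX, and was at 17.4, 22.2 and 21.5 CPM in control and at 6.80, 7.12 and 5.88 CPM in senescent libraries. Control replicate 1 differed by −20.5% from the other control libraries and was still above every senescent library. *H2afx* fell from 20.4 ± 2.61 to 6.60 ± 0.645 CPM, 3.08-fold, a log2 fold change of −1.63 (SE 0.12, adjusted p = 1.13e-05 by edgeR). With the GC offset the value was −1.26, the smallest decrease of *H2afx* under any alternative. *H2afx* transcripts occur with and without a poly(A) tail, and these libraries were made from polyadenylated RNA.

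*Mdc1* (ENSMUSG00000061607, chr17:35841515-35859670) was the most counted of the 10 genes in control cells, at 105, 102 and 103 CPM, and was at 47.2, 44.0 and 48.0 CPM in senescent libraries. It fell from 103 ± 1.63 to 46.4 ± 2.11 CPM, 2.23-fold, a log2 fold change of −1.15 (SE 0.06, adjusted p = 9.91e-07 by edgeR). *Trp53bp1* (ENSMUSG00000043909, chr2:121193281-121271407), which encodes 53BP1, the factor that shields ends from resection, was at 84.3, 82.0 and 80.0 CPM in control and at 64.1, 60.5 and 63.5 CPM in senescent libraries. Its log2 fold change was −0.39 (SE 0.05, adjusted p = 0.000352 by edgeR), a smaller decrease than those of *H2afx* and *Mdc1*, with 95% intervals that do not meet (−0.52 to −0.26 for *Trp53bp1*, −1.91 to −1.34 for *H2afx* and −1.29 to −1.02 for *Mdc1*).

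Both effector kinases lost more than their upstream kinases. *Chek1* (ENSMUSG00000032113, chr9:36708482-36727065) was at 17.6, 17.5 and 16.7 CPM in control and at 5.21, 4.62 and 6.14 CPM in senescent libraries. It fell from 17.3 ± 0.519 to 5.32 ± 0.765 CPM, 3.24-fold, a log2 fold change of −1.69 (SE 0.11, adjusted p = 5.70e-06 by edgeR). Its 289 counts in senescent replicate 1 were the fewest of any of the 10 genes, a counting error of 5.88%. *Chek2* (ENSMUSG00000029521, chr5:110840017-110874133) was at 20.7, 18.8 and 20.3 CPM in control and at 5.38, 5.05 and 5.13 CPM in senescent libraries. It fell from 19.9 ± 1.01 to 5.18 ± 0.171 CPM, 3.84-fold, a log2 fold change of −1.94 (SE 0.08, adjusted p = 3.73e-07 by edgeR), the largest change of the 10. The 95% interval for *Chek2* (−2.13 to −1.76) lay below that of *Atm* (−0.59 to −0.20), and the interval for *Chek1* (−1.96 to −1.43) below that of *Atr*. The intervals of *Chek1* and *Chek2* overlapped.

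**Figure D3:**
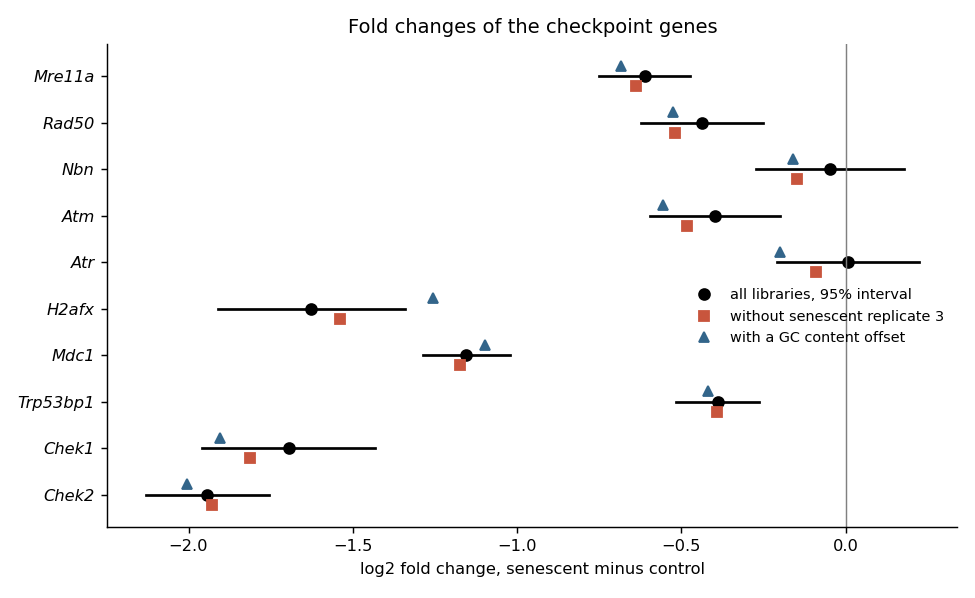
Log2 fold change, senescent minus control MAFs (x axis), of the 10 genes. Black circles with 95% intervals are the fit over all libraries by edgeR, squares the values without senescent replicate 3, and triangles those with a GC content offset. The intervals of *Atr* and *Nbn* include 0, and *Chek2* lies furthest to the left at −1.94.

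The balance within each pair of partners was compared per library, as the log2 ratio of CPM per kb of deposited gene length, since a ratio within a library does not depend on its scaling. *Atm* over *Atr* was 1.64, 1.61 and 1.66 in control and 1.25, 1.23 and 1.22 in senescent libraries. This ratio fell by 0.40 on the log2 scale, with an SD of 0.03 in control and 0.02 in senescent libraries, and senescent replicate 3 did not stand out in it. *Nbn* over *Mre11a* was 0.58, 0.51 and 0.52 in control and 1.04, 1.02 and 1.23 in senescent libraries, 0.56 higher on the log2 scale. *Rad50* over *Mre11a* was 0.53, 0.62 and 0.61 in control and 0.72, 0.69 and 0.86 in senescent libraries, 0.17 higher. None of these 3 ratios overlapped between groups. Of all single genes tested, 75.3% did not overlap either, and other gene pairs were not compared. Each of the 3 ratios had an exact two-sided permutation p of 0.1, the smallest that 3 against 3 libraries allow. After Benjamini-Hochberg adjustment over the 4 ratios, this p was 0.133. *Chek1* over *Chek2* was −1.28, −1.14 and −1.33 in control and −1.09, −1.17 and −0.79 in senescent libraries, which overlapped (difference 0.24, exact p = 0.2, adjusted 0.2). The length used shifts a ratio by the same amount in every library, so it leaves the differences between groups as they are but sets the ratio itself. Per kb of coding transcript, chosen after seeing the data, *Nbn* over *Mre11a* went from −0.31 in control to 0.25 in senescent libraries, *Rad50* over *Mre11a* from −0.20 to −0.03 and *Atm* over *Atr* from 0.18 to −0.22. Which partner is the more abundant therefore depends on the length taken.

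**Figure D4:**
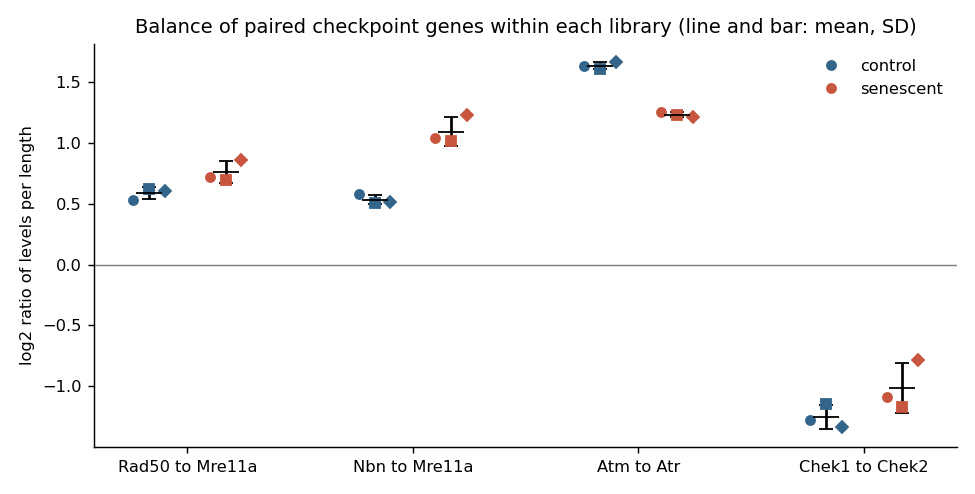
Log2 ratio of CPM per kb (y axis) for 4 pairs of partner genes in each control and senescent library (circle, square and diamond for replicates 1, 2 and 3), with bars for the group mean and SD. *Atm* over *Atr* is lower and *Nbn* over *Mre11a* higher in every senescent library than in any control library, while *Chek1* over *Chek2* overlaps.

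Levels were compared between genes as CPM per kb of deposited length. In control MAFs, *H2afx* (14.7 ± 1.88) and *Mdc1* (13.9 ± 0.220) led and overlapped, followed by *Rad50* (11.9 ± 0.223) and *Nbn* (11.5 ± 0.504), which also overlapped. *Chek2* (8.87), *Mre11a* (7.91), *Atm* (7.30), *Trp53bp1* (5.80), *Chek1* (3.72) and *Atr* (2.35) came after. In senescent MAFs the order was *Nbn* (11.1 ± 1.37), *Rad50* (8.78), *Mdc1* (6.26), *Atm* (5.54), *Mre11a* (5.17), *H2afx* (4.77), *Trp53bp1* (4.43), *Atr* (2.36), *Chek2* (2.31) and *Chek1* (1.15). Neighbours from *Mdc1* to *Trp53bp1* overlapped, as did *Atr* and *Chek2*. The deposited length counts every exon of a gene, and for *Atr* it is 23492 bases against 8102 for its longest coding transcript. Per kb of coding transcript, *Atr* was at 6.81 in control and 6.84 in senescent MAFs, no longer among the lowest genes of the senescent order, and *Chek1* was lowest in both groups (4.54 and 1.40). *Mre11a*, with 5902 bases of deposited length and 3286 of coding transcript, moved from place 6 (7.91) to place 2 (14.2) in control and from place 5 (5.17) to place 2 (9.29) in senescent MAFs. *Trp53bp1* was at 8.54 and 6.52 on this scale, so the order of the middle genes also depends on the length.

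Of the 10 genes, 5 lie on chromosome 9, *Mre11a*, *H2afx*, *Atm*, *Atr* and *Chek1*, and they spanned log2 fold changes from 0.01 for *Atr* to −1.69 for *Chek1*. Several share a start region or exon with another gene. *Chek2* starts 202 bases from *Hscb*, a cochaperone of iron-sulfur cluster assembly on the opposite strand, which went from 7.33 ± 0.434 to 5.87 ± 0.292 CPM, a log2 fold change of −0.32 (adjusted p = 0.0123 by edgeR). That call was lost without control replicate 2 (adjusted p = 0.0590) or senescent replicate 1 (0.0501). *Atm* starts 307 bases from *Npat*, an activator of histone genes, which went from 54.9 ± 1.11 to 45.5 ± 6.89 CPM, a log2 fold change of −0.27 (adjusted p = 0.0467 by edgeR), a call lost under 10 of 14 alternatives, with adjusted p from 2.64e-07 to 0.148. *Ankrd49*, which starts 202 bases from *Mre11a* and shares 154 exon bases with it, was at 18.3 ± 0.364 and 21.6 ± 2.68 CPM, a log2 difference of 0.25 (adjusted p = 0.0512 by edgeR), opposite in sign to that of *Mre11a*. *Ankrd49* was past the threshold under 7 of 14 alternatives, was at 0.15 without senescent replicate 3 (adjusted p = 0.0369), and was at 0.0091 with the GC offset (adjusted p = 0.886).

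*Trp53bp1* shares 2130 exon bases with *Tubgcp4* on the opposite strand, which itself fell, from 74.0 to 59.6 CPM (log2 fold change −0.31, adjusted p = 0.00590 by edgeR). The kit keeps strand, but the strand setting of the counting is not given in the sources used here, so reads on shared bases may be split or lost between such partners. *Atr* has 3 noncoding partners on its exons, with at most 114 counts in any library against at least 2531 for *Atr*.

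Around the 10 genes, 85 tested genes of 7 lists of the same pathways gave 52 lower, 9 higher and the rest not called at an adjusted p under 0.05 by edgeR, against 34.1% lower and 36.2% higher over all genes tested. These lists, like the 10 genes, were chosen with earlier results of these data known. Factors that load or activate ATR had 13 of 19 lower and 0 higher, with a median log2 fold change of −1.21. *Clspn*, the adaptor that carries the ATR signal to CHK1, went from 60.2 ± 1.89 to 2.88 ± 0.298 CPM (−4.39), and the clamp loader subunits *Rfc5* and *Rfc3* changed by −3.01 and −1.69 on the log2 scale. The 6 genes not called were *Atrip*, *Rad9a*, *Rad9b*, *Hus1*, *Rad1* and *Rad17*, named after their values were seen. They ranged from −0.17 for *Atrip* to 0.07 for *Rad1*. With the GC offset, 15 genes of this list were lower. ATM activation and end resection had 7 of 8 lower, with a median of −2.42. The nuclease *Exo1* (−4.48) and the helicases *Brip1* (−4.03) and *Blm* (−2.45) were among them. Its single higher gene was *Atmin*, an ATM cofactor, named after its value was seen, at 18.8 and 26.0 CPM (0.47, adjusted p = 0.000370 by edgeR).

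Break-site ubiquitin factors and effectors of 53BP1 had 8 of 17 lower, 0 higher and a median of −0.20, with 34.1% lower and 36.2% higher over all genes. *Brca1* (−3.83) and its partner *Bard1* (−2.91), which promote recombination, fell, as did *Paxip1*, an effector of 53BP1 (−0.56). The ubiquitin ligases *Rnf8* (−0.11) and *Rnf168* (−0.24), named after their values were seen, were among the 9 genes not called. With the GC offset, 11 genes of this list were lower. Kinases related to ATM and ATR with their TTT chaperone had 6 lower and 2 higher of 11, with a median of −0.35, against the same 34.1% and 36.2%. Among the lower genes were *Trrap* (−0.59), the chaperone subunit *Tti1* (−0.38) and the Ku subunit *Xrcc6* (−0.59). Phosphatases that reverse checkpoint signals had 3 lower and 4 higher of 10, with a median of −0.04, shares near those over all genes (34.1% and 36.2%). *Ppp4c* (−0.64) and *Ppp1cc* (−0.37) fell and *Ppp2cb* (0.44) rose, and 6 phosphatases were lower with the GC offset and 5 without senescent replicate 3.

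The checkpoint effector list held p53, its regulators and p21 with the CDC25 phosphatases, the cyclins, the cyclin-dependent kinases and the kinases that control them. It had 12 lower and 2 higher of 15, with a median of −2.15, against 34.1% lower and 36.2% higher over all genes. The mitotic kinase *Cdk1* (−3.60), its cyclin *Ccnb1* (−5.18) and its activator *Cdc25b* (−2.98) fell. The 2 higher genes, named after their values were seen, are targets of p53. *Trp53*, which encodes p53 and was also named afterwards, did not pass (−0.12, adjusted p = 0.236 by edgeR). *Cdkn1a*, which encodes the inhibitor p21, rose from 123 ± 2.01 to 620 ± 16.3 CPM (2.33, adjusted p = 2.54e-08 by edgeR), and *Mdm2*, the ubiquitin ligase of p53, rose from 83.7 ± 2.22 to 317 ± 18.9 CPM (1.92, adjusted p = 1.35e-07 by edgeR). Other H2A variants had 3 of 5 lower and 0 higher, against the same 34.1% and 36.2%. *H2afz* (−2.43), *H2afy2* (−2.11) and *H2afv* (−1.92) fell at least as far as *H2afx* by their fitted values, while *H2afy* (−0.10) and *H2afj* (0.12) did not pass.

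**Figure D5:**
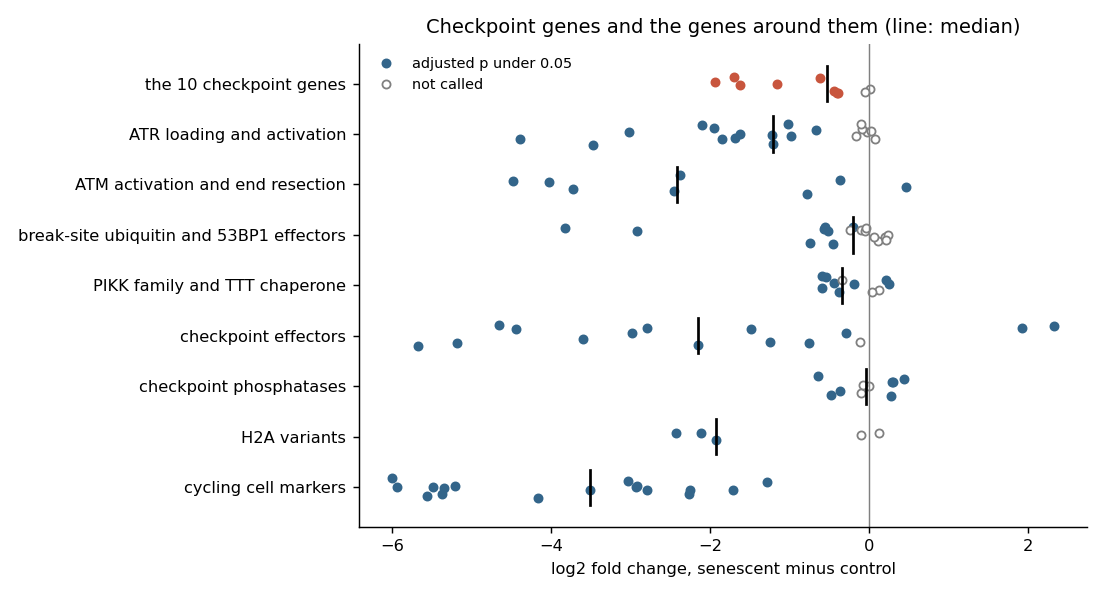
Log2 fold change, senescent minus control (x axis), of the 10 checkpoint genes and of each tested gene in the pathway and cycling lists, 1 row per list, with a black line at the median. Filled points passed an adjusted p of 0.05 (orange for the 10 genes, blue for the lists), open points did not. Points of the ATR loading, end resection and effector lists reach below −4, and the phosphatases have a median of −0.04.

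Markers of cycling cells moved with these results. All 17 of 17 were lower, their sum went from 2665 to 2721 CPM in control libraries to 249 to 261 CPM in senescent libraries, and the log2 fold changes of *Mki67*, *Ccna2* and *Ccnb2* were −5.94, −5.37 and −5.48. *Cdk1* and *Ccnb1* are themselves cycling genes, and the part of cycling cells in the decrease of the checkpoint genes was not tested. Markers of cell types an ear culture could hold also differed. For the counts of these and of the cycling markers, the shares over all genes tested were 34.1% lower and 36.2% higher. Of 10 fibroblast markers, 5 were lower and 4 higher, with sums of 17811 to 19901 CPM in control and 6717 to 8018 CPM in senescent libraries. Chondrocyte markers were lower in 6 of 6 tested, from 6690 to 7194 down to 594 to 680 CPM. *Matn1* of that list, not tested for low counts, had 1, 1 and 0 counts in control and 8, 10 and 10 in senescent libraries. Some markers of other types were higher from low sums. Macrophage markers were higher in 5 of 5 (sums of 5.69 to 6.46 CPM in control and 13.98 to 16.5 CPM in senescent libraries, *Adgre1* not found) and endothelial markers in 4 of 4 (2.43 to 2.83 and 7.52 to 8.34 CPM). Skeletal muscle markers were higher in 2 of 2 (0.204 to 0.381 and 1.53 to 1.61 CPM). Keratinocyte markers were higher in 2 of 4 (3.23 to 4.13 and 19.2 to 20.1 CPM), and most of that sum was *Ivl*, at 0 counts in every control library and 13.97 CPM in senescent MAFs, with *Cdh1* at 0.477 and 1.91 CPM. *Krt10* (1.95 and 1.94 CPM) and *Krt5* (1.00 and 1.53 CPM) did not pass. Schwann cell and melanocyte markers were lower in 2 of 2 (3.51 to 3.85 and 2.70 to 2.83 CPM), with *Dct* and *Tyr* at 3 counts or fewer. In the same list, not tested for low counts, *Sox10* had 0 counts in all control libraries and 20, 34 and 8 in senescent libraries, and *Mlana* had 1, 0 and 0 against 2, 2 and 15. The single markers named for chondrocytes, keratinocytes, Schwann cells and melanocytes were chosen after their values were seen. The part of these cell types in the checkpoint results was not tested.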

How the data were processed

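Poly(A) RNA of 3 control and 3 senescent MAF libraries had been prepared with a stranded kit and sequenced in paired reads. The authors mapped reads to mm10 (GRCm38) with STAR in MAPRSeq, counted reads per gene with Subread, and deposited raw counts with gene lengths, without normalization. The strand setting and annotation release are not given in the sources used here. Columns were matched to samples by their labels, and 0 columns of per-sample values were left unused.

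Genes were kept by filterByExpr (17589 of 43346), scaled by TMM, and tested by the robust quasi-likelihood fit of edgeR 4.0.16 under R 4.3.3 with a single group term and Benjamini-Hochberg adjustment over all genes tested. The procedure was tested on simulated data. CPM is TMM-scaled, and errors are SDs unless named SE. GC content and strand came from GENCODE M21. Library totals of 50288454 to 82229553 counts set the precision, and counting errors cover counting only. The sources used here do not say whether replicate numbers pair the samples, and the main fit did not pair them.

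Named were the 10 genes, the 3 genes of each list with the smallest p, the 2 genes nearest each of the 10 in pattern, and genes starting on the opposite strand within 1000 bases. *Cdkn1a*, *Mdm2*, *Trp53*, *Atmin*, *Tubgcp4*, *Rnf8* and *Rnf168* were added after their values were seen. So were the H2A variants and the ATR loading factors that did not pass. The genes and lists were chosen with earlier results of these data known. Alternatives were RLE or library size scaling, no filter or at least 10 counts in every library, the edgeR exact test, DESeq2 1.42.0, a replicate block, a GC offset, a pseudocount for the ratios, a stricter threshold and leaving out each library.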

Additional observations from a re-analysis of the deposited data

How the results depend on the processing

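The 8 genes called lower kept their direction and stayed past an adjusted p of 0.05 under all 14 alternatives, and 9 were lower without senescent replicate 3 and 10 with the GC offset. Leaving out 1 library gave log2 fold changes of −1.99 to −1.92 for *Chek2*, −1.81 to −1.59 for *Chek1*, −1.73 to −1.54 for *H2afx*, −1.17 to −1.11 for *Mdc1*, −0.64 to −0.59 for *Mre11a*, −0.52 to −0.38 for *Rad50*, −0.48 to −0.34 for *Atm* and −0.41 to −0.36 for *Trp53bp1*. *Atr* turned to −0.20 with the GC offset and −0.0042 with no filter, and ranged from −0.089 to 0.065 with 1 library left out, below 0 without control replicate 3 (−0.044) or senescent replicate 3. *Nbn* was −0.16 with the GC offset, 0.00065 with at least 10 counts in every library and 0.030 with library size scaling. It ranged from −0.15 to 0.015 with 1 library left out, at 0.0025 without senescent replicate 1 and 0.015 without senescent replicate 2. The cause was not tested. The 4 ratios kept their sign, at 0.12 to 0.20 for *Rad50* over *Mre11a*, 0.49 to 0.60 for *Nbn* over *Mre11a*, −0.42 to −0.39 for *Atm* over *Atr* and 0.12 to 0.31 for *Chek1* over *Chek2* with 1 library left out.

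For this comparison the paper's Results section names 1e-05 as its p threshold, whereas its methods name 0.05. With the fold limit, 1231 genes were lower and 1454 higher at an unadjusted p under 1e-05, against 2166 and 3134 at 0.05. Genes higher numbered 1724 with at least 10 counts in every library and 5194 with no filter. Pathway genes called higher were 5 to 10 with 1 library left out, 5 without control replicate 2. Same-numbered samples deviated with correlations of −0.118, 0.117 and −0.103, and control replicate 1 correlated best with senescent replicate 3. Both of those libraries had the GC trend, so these correlations cannot decide whether replicate numbers pair the samples. The replicate block left 8 of the 10 genes lower and 5660 and 5964 genes lower and higher. Levels and ratios per coding transcript length were added after seeing the data. Neither protein nor phosphorylation was measured.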

Other observations

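For each of the 10 genes, the closest genes were found by the Euclidean distance between 6 log2 CPM values, each gene centred on its control mean, among 13707 genes whose mean reached 1 CPM. The distances are a description over 6 libraries that share 2 groups, and carry no test. *Chek2* was nearest to *Dsn1* and *Ncapd3*, a kinetochore and a condensin subunit, at distances of 0.0750 and 0.135. *Chek1* was nearest to *Trp63* (0.157) and *Rarres1* (0.161), the largest distances of the 10. *Mdc1* was nearest to *C2cd5* (0.0559) and *Fstl1* (0.0764), and *H2afx* to *Rpl10a-ps1* (0.138), a ribosomal protein pseudogene whose reads may come from its parent gene, and *Pax8* (0.147). *Mre11a* had the closest match of all in *Rftn2* (0.0246), which averaged 42.8 ± 0.553 CPM in control MAFs against 27.9 ± 1.04 CPM in senescent MAFs, and was followed by *Fam114a1* (0.0475).

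*Rad50* was nearest to *Pus10* (0.0510) and *Pnisr* (0.0633), *Atm* to *Vcan* (0.0313) and *0610030E20Rik* (0.0438), and *Trp53bp1* to *Emp2* (0.0439) and *Ganab* (0.0504). The genes that did not pass the test, *Atr* and *Nbn*, were nearest to *Kdm7a* (0.0572) and *Zfp449* (0.0650), and to *Mgea5* (0.0310) and *Map4k5* (0.0319).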
